A study of Mus musculus with 19 samples.

Results

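The RNA levels of 10 genes used as markers or regulators of intestinal stem cells were followed across normal mouse colon and colon tumours. The genes were chosen by symbol: Lgr4, Lgr5, Ascl2, Olfm4, Smoc2, Rgmb, Lrig1, Hopx, Sox4 and Bmi1. All 10 were present among the 32694 gene symbols of the deposited table, and all 10 passed the filter on low values that left 18445 genes for testing. All mice were 12 weeks old, and each of the 19 libraries came from a different mouse. Wild-type colon came from 3 females and 2 males. Apc tumours were single colon tumours from 3 females and 4 males in which Villin-Cre had removed 1 of the Apc alleles. Apc/Tgif tumours were single colon tumours from 3 females and 4 males in which Villin-Cre had removed 1 Apc allele together with both alleles of Tgif1 and of Tgif2, a pair of related homeodomain repressors. Villin-Cre is a recombinase active in the intestinal epithelium, so muscle, connective tissue and blood cells of a tumour piece keep their alleles. Wild-type colon was whole normal tissue and carried no deletion.

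Stem cells at the base of the intestinal crypt divide under the influence of Wnt ligands and R-spondins, and their progeny differentiate as they move up the crypt, where BMP signalling is stronger. Apc is a scaffold of the complex that destroys β-catenin, and its loss leaves Wnt target genes active without ligand. Lgr4 and Lgr5 are R-spondin receptors, Ascl2 and Sox4 are transcription factors, and Smoc2 and Olfm4 are secreted proteins that mark cycling crypt-base cells. Rgmb is a BMP co-receptor. Hopx, Lrig1 and Bmi1 have been used to mark slower-cycling or reserve cells. Olfm4 marks crypt-base cells of the small intestine and is known to be scarce in mouse colon.

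The values are normalized counts, which are counts per gene divided by a factor per library. Totals lay between 34417808 and 44732717 per library, and 1 count was worth 0.744 to 1.44 normalized counts. The median Pearson's r of a library to the others of its group, across genes, lay between 0.943 and 0.979. The lowest belonged to Apc/Tgif tumour 2, in which 15 proliferation genes summed to 18497.5 normalized counts, against 54030.1 to 70965.9 in the 6 other Apc/Tgif tumours. Tgif1 was 964 ± 143 (SD, n = 5) in wild-type colon, 3815 ± 803 (n = 7) in Apc tumours and 354 ± 137 (n = 7) in libraries labelled Apc/Tgif. Tgif2 was 161 ± 50.1, 642 ± 92.1 and 2657 ± 352 in the same order, so at the level of the whole gene Tgif2 RNA went against its label. The values do not show which exons the reads came from. Of all genes, 25.2% were called lower in Apc and 25.5% in Apc/Tgif tumours than in wild-type colon (limma adjusted p under 0.05). All 10 smooth muscle markers were called lower in each kind of tumour. Their sum was 210239 to 313830 in wild-type colon, 13574.8 to 23142.3 in Apc tumours and 10256.9 to 19437.9 in Apc/Tgif tumours, and no marker was at 0 throughout a group. The sum of 16 pan-epithelial markers was 652661 to 826070, 366627 to 736683 and 429623 to 555030 in that order, with none at 0. Of the 16, 2 were called higher and 9 lower in Apc tumours, against 23.9% and 25.2% of all genes. In Apc/Tgif tumours 2 were higher and 8 lower, against 24.8% and 25.5%. Epcam was level, at means of 65964, 66661 and 66935. Krt8 fell, at 185914, 135244 and 116666, and Cldn4 rose, at 1525, 17763 and 19429.5. The sum and the scaling to this list depend on the markers in it. The 5 distal colon markers summed to 20551.4 to 24571 in wild-type colon, 1103.28 to 22351 in Apc tumours and 7378.19 to 24220.3 in Apc/Tgif tumours, and the labels do not say where along the colon a tumour grew. The part of these shifts in marker levels in the differences from wild-type colon was not tested. The pan-epithelial scaling and the distal colon covariate are given below with the genes they moved.

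The promoters of Ascl2, Hopx, Lrig1 and Sox4 are shown because these 4 genes were higher in Apc/Tgif than in Apc tumours, and that of Rgmb because it holds the core sequence bound by Tgif proteins. The sequences are the 250 bases before an annotated start, from RefSeq on GRCm38.p6, read 5′ to 3′ on the strand of the gene, with a searched motif in capitals. The windows are chr7:142969265-142969514 for Ascl2, chr5:77115124-77115373 and chr5:77095268-77095517 for the upstream and downstream starts of Hopx, chr6:94700146-94700395 for Lrig1, chr13:28953700-28953949 for Sox4 and chr17:15831247-15831496 for the most upstream of 3 starts of Rgmb, all on the minus strand.
Ascl2: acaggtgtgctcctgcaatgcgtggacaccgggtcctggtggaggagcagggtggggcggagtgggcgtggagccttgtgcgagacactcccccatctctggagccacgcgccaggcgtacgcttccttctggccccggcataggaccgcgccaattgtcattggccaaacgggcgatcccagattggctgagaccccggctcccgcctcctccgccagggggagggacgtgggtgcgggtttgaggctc
Hopx upstream start: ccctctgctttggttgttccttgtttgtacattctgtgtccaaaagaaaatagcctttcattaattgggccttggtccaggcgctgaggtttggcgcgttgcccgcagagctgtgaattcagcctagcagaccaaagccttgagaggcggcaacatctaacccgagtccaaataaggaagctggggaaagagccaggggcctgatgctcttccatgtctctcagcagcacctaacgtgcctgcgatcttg
Hopx downstream start: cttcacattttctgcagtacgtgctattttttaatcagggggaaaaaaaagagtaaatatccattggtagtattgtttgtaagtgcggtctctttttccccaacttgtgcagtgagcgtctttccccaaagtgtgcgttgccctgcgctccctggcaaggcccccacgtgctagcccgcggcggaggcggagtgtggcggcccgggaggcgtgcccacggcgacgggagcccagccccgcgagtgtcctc
Lrig1: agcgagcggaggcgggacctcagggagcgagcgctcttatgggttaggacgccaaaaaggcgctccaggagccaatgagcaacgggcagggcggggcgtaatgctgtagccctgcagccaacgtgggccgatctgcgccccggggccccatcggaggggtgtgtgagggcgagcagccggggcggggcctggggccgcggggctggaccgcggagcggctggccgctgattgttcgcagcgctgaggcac
Sox4: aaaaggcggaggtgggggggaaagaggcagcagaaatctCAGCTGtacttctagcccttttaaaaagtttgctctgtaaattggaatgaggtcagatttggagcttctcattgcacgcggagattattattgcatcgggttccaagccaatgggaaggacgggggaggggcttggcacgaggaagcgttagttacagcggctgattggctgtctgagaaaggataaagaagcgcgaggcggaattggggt
Rgmb: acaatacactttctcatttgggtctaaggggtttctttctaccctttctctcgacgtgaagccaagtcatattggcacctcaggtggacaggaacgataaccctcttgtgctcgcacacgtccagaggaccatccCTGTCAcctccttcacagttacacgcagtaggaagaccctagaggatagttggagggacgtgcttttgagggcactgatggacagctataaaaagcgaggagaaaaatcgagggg

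The table held promoters for 8 of the 10 genes, not for Lgr5 and Smoc2. A gene was counted if any of its windows held a motif, while the shares of all promoters are per window, so the units differ. Each motif was searched on both strands, and CAGCTG reads the same on both. CTTTGAT, a core sequence of Tcf/Lef factors, was in the windows of 0 of the 8 genes and in 3.21% of 32851 mouse promoters. CAGCTG, an E-box of the kind that basic helix-loop-helix factors bind, was in the window of 1 gene, Sox4, 211 bases before the start, and in 13.0% of all promoters. CTGTCA, the Tgif core sequence, was found for 1 gene, Rgmb, in 1 of its 3 windows, 115 bases before the start, and in 15.9% of all promoters. None of the motifs overlapped another. The windows of the 4 genes that were higher in Apc/Tgif tumours differed in composition. GC content was 67.6% for Ascl2, 52.4% and 57.6% for Hopx, 71.6% for Lrig1 and 50.8% for Sox4, against a median of 52.4% over all promoters. They held 19, 8, 18, 26 and 11 CG pairs in that order, against a median of 6.0.

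In Apc tumours, Lgr5, Ascl2, Smoc2, Hopx, Sox4 and Bmi1 were higher than in wild-type colon, and Lgr4, Rgmb and Lrig1 were lower. Olfm4 was higher too, but it passed the filter on low values through tumour libraries alone and so had to differ from wild-type colon in that direction. It is left out of the counts and medians given next, which cover the other 9 genes, 6 of them higher and 3 lower. Over all genes tested, 23.9% were called higher and 25.2% lower (limma, Benjamini-Hochberg adjusted p under 0.05, two-sided), so 6 of 9 was above the background share and 3 of 9 was near it. The groups did not overlap, in either direction, for 8 of the 9, against 29.4% of all genes, and Lgr4 was the exception. The median log2 fold change of the 9 was 1.06, against -0.01 over all genes. In bulk tissue, a change in the share of stem-like cells and a change in RNA per cell cannot be told apart.

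In Apc/Tgif tumours, the same 6 of the 9 genes were higher than in wild-type colon, 1 was lower (Rgmb) and 2 (Lgr4 and Lrig1) were not called. Olfm4 again had to be higher through the filter and is not counted. Of all genes, 24.8% were called higher and 25.5% lower. The groups did not overlap, in either direction, for 7 of the 9, against 30.6% of all genes. The median of the 9 was 2.01, against 0.00 over all genes. This comparison shares its 5 wild-type libraries with the preceding one, so they are not independent of each other.

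Apc/Tgif tumours were compared with Apc tumours directly, which needs no wild-type library. Ascl2, Lrig1, Hopx and Sox4 were called higher, 4 of 10, against 7.88% of all genes. None was called lower, against 8.76%. At an unadjusted limma p under 0.05 the same 4 were past the threshold, where the share of all genes is not given. The groups did not overlap for 1 of the 10, Hopx, against 4.07% of all genes in either direction. The median of the 10 was 0.25, against -0.01 over all genes. Markers of differentiated cells moved in the same comparison, with 8 of 10 goblet and 8 of 12 colonocyte markers lower in Apc/Tgif tumours. The goblet markers summed to 555048 to 904945 in wild-type colon, 73304.8 to 290040 in Apc tumours and 30352.9 to 83889.7 in Apc/Tgif tumours, and the colonocyte markers to 341316 to 427908, 60003.2 to 191472 and 43486.2 to 94672, with none at 0 throughout a group. Of other cell types, 4 of 10 fibroblast markers were lower, at sums of 104426 to 186695 in Apc and 75158.1 to 115482 in Apc/Tgif tumours, and 4 of 12 leukocyte markers were higher, at 10050.6 to 26061.8 and 9575.86 to 21527.8. The part of these shifts in the differences of the 4 genes was not tested.

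**Figure D1:**
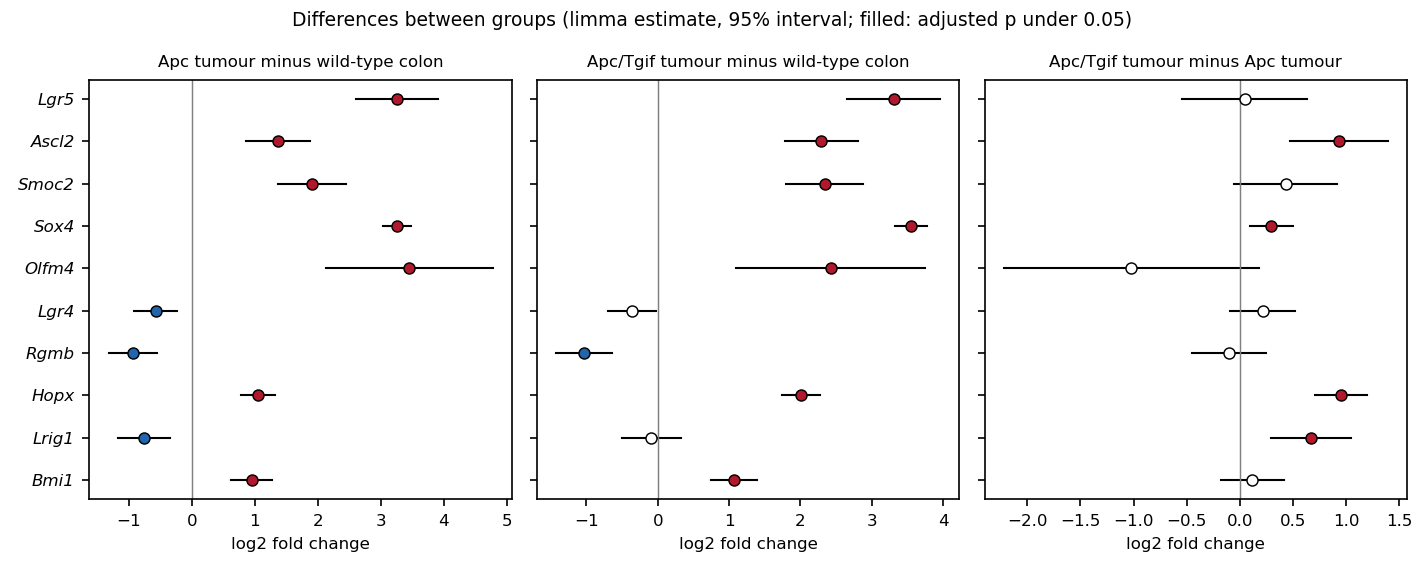
Log2 fold change of each of the 10 genes in the 3 comparisons, with the 95% interval of the limma estimate. Filled points have an adjusted p under 0.05. Olfm4 is filled against wild-type colon, but the filter on low values fixed its direction there, so those points are no test. In the comparison of Apc/Tgif with Apc tumours, 4 filled points lie to the right of 0, with Hopx and Ascl2 at 0.95 and 0.93.

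Of the R-spondin receptors, Lgr5 rose 9.60-fold in Apc tumours and 9.89-fold in Apc/Tgif tumours, while Lgr4 was called higher in neither. Lgr5 (ENSMUSG00000020140, chromosome 10, 115450311 to 115587780, minus strand, GRCm38) had normalized counts of 626, 528, 393, 265 and 379 in the 5 wild-type libraries. In Apc tumours the lowest, median and highest values were 1489, 4459 and 6094, and in Apc/Tgif tumours 2772, 3670 and 8209. Every tumour stood above every wild-type library, and the tumour genotypes overlapped over most of their range. The means were 438 ± 140, 4217 ± 1700 and 4229 ± 1887. Lgr5 was higher than in wild-type colon by a log2 fold change of 3.26 (SE 0.312, limma adjusted p = 9.67e-08) in Apc tumours and 3.31 (adjusted p = 5.28e-08) in Apc/Tgif tumours. Between the genotypes the difference was 0.04, with a 95% interval of -0.55 to 0.63 (limma adjusted p = 0.944). Lgr5 overlaps A930009A15Rik on the opposite strand, which had means of 0.732, 10.6 and 15.4 normalized counts, far below Lgr5 itself.

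Lgr4 (ENSMUSG00000050199, chromosome 2, 109917647 to 110014257, plus strand) is the receptor found throughout the crypt. It stood at 13152, 11243, 14001, 9097 and 9249 in wild-type colon, at 5690, 7997 and 9925 (lowest, median, highest) in Apc tumours and at 6665, 9300.3 and 10687 in Apc/Tgif tumours. The highest tumours reached the lowest wild-type libraries, so the groups overlapped. Lgr4 was lower in Apc tumours by a log2 fold change of -0.57 (SE 0.161, limma adjusted p = 0.00622). In males alone the value was -0.31 and not called. With equal library totals it was -0.37 and relative to the pan-epithelial list -0.25, and neither was called. In Apc/Tgif tumours the difference from wild-type colon was -0.36 (95% interval -0.70 to -0.02, adjusted p = 0.0701), and relative to the pan-epithelial list it turned to 0.13. Within females it was -0.79 and called (adjusted p = 0.00867), and within males 0.11 (adjusted p = 0.608). The difference between the sexes was 0.89 (SE 0.255, adjusted p = 0.0598). Leaving out wild-type library 4, wild-type library 5 or Apc/Tgif tumour 5 brought it past the threshold, at -0.45, -0.45 and -0.41. Between the genotypes it was 0.21 (-0.09 to 0.52, adjusted p = 0.364).

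The other genes of the R-spondin axis moved in both directions. Of 7, 6 were tested. Lgr6 and Rspo4 passed the filter through tumour libraries alone, and Rspo1 through the 5 wild-type libraries with 1 tumour, so their directions against wild-type colon were fixed by the filter and their values are a description. Of the other 3, Znrf3 and Rnf43 were higher and Rspo3 was lower in tumours of each genotype. Lgr6, another receptor of the family, had means of 2.16 ± 0.763, 580 ± 382 and 1415 ± 984 in wild-type colon, Apc and Apc/Tgif tumours, and no wild-type library exceeded 2.87. Znrf3 and Rnf43 are ubiquitin ligases that clear Wnt receptors and are themselves removed by R-spondin bound to Lgr receptors. Znrf3 had means of 873, 2848 and 3430, and Rnf43 of 1566, 7932 and 13715. Rnf43 was higher in Apc/Tgif than in Apc tumours by 0.78 (adjusted p = 0.000899), the only gene of the axis called in that comparison. The ligand gene Rspo3 had means of 296 ± 59.4, 50.02 ± 21.4 and 25.3 ± 16.4, with log2 fold changes of -2.60 and -3.68 (limma adjusted p = 6.62e-05 and 8.96e-07). Rspo1, another ligand gene, had means of 33.9, 4.37 and 2.21. In Apc tumours Rspo4 ranged from 2.17 to 59.7, while each of the 5 wild-type libraries listed it at 0. Rspo2 was not tested, with means of 18.3, 1.35 and 2.59. The fall of Rspo3 went along with that of the smooth muscle markers, whose part in it was not tested.

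**Figure D2:**
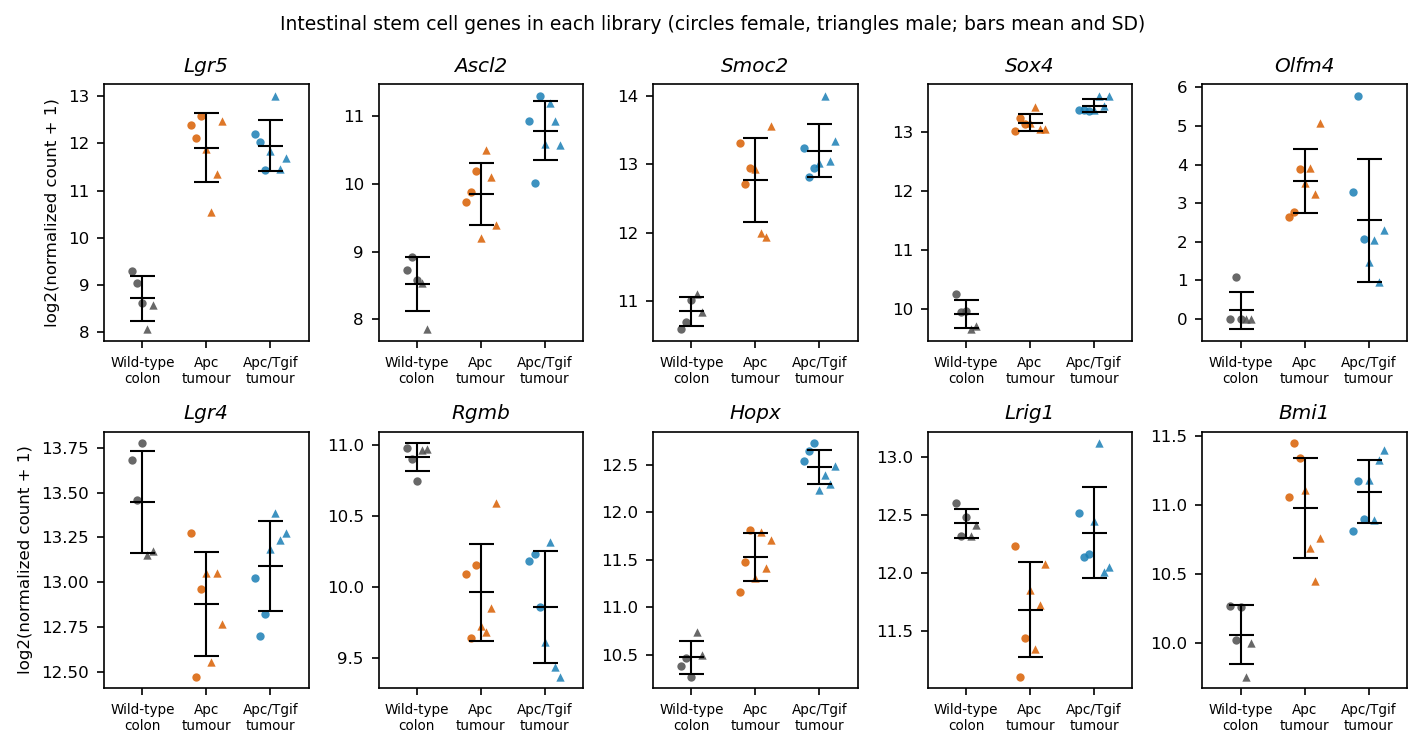
Log2(normalized count + 1) of each of the 10 genes in each library, by group; circles are females, triangles males, and bars the mean and SD of 5 wild-type libraries or 7 tumours. Lgr5, Ascl2, Smoc2, Sox4, Hopx and Bmi1 stand above wild-type colon in every tumour, and Hopx also separates the tumour genotypes.

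The transcription factors Ascl2 and Sox4 rose in tumours of both genotypes, and both were higher again in Apc/Tgif than in Apc tumours. Ascl2 (ENSMUSG00000009248, chromosome 7, 142966829 to 142969264, minus strand), a basic helix-loop-helix factor that is a Wnt target in crypt-base cells, stood at 423, 482, 384, 369 and 230 in wild-type colon. It ranged from 586 through a median of 945 to 1444 in Apc tumours, and from 1037 through 1946 to 2513 in Apc/Tgif tumours. Every tumour lay above every wild-type library, and the tumour genotypes overlapped between 1037 and 1444. The log2 fold changes against wild-type colon were 1.36 (SE 0.242, limma adjusted p = 0.000125) and 2.29 (adjusted p = 2.19e-07), or 2.57 and 4.91-fold. Ascl2 was 1.91-fold higher in Apc/Tgif than in Apc tumours, a log2 fold change of 0.93 (SE 0.219, adjusted p = 0.00632). In females alone this value was 0.81 and past no threshold (adjusted p = 0.0668).

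Sox4 (ENSMUSG00000076431, chromosome 13, 28948919 to 28953713, minus strand), a factor with an HMG box, stood at 1219, 977, 997, 800.4 and 837 in wild-type colon. In Apc tumours its lowest, median and highest values were 8314, 8999 and 11055, and in Apc/Tgif tumours 10487, 10680 and 12530. The lowest tumour, at 8314, lay far above the highest wild-type library, at 1219, and replicates lay close together, with coefficients of variation of 10.4% and 8.01% in the tumours. The log2 fold changes were 3.26 (SE 0.107, limma adjusted p = 6.35e-14) and 3.56 (adjusted p = 1.36e-14), or 9.59 and 11.8-fold. Between the genotypes the difference was 0.29 (SE 0.0968, adjusted p = 0.044), near the threshold. The adjusted p was above 0.05 under 10 of 17 other settings, at log2 fold changes between 0.24 and 0.47, and in 13 of 19 fits without 1 library, which gave 0.26 to 0.34 over all 19.

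Of the secreted crypt-base markers, Smoc2 rose 3.76-fold in Apc tumours and 5.06-fold in Apc/Tgif tumours, while Olfm4 was at 53.7 normalized counts or less in every library. Smoc2 (ENSMUSG00000023886, chromosome 17, 14279506 to 14404790, plus strand), a matrix-associated calcium-binding protein, stood at 1540, 1666, 2074, 2211 and 1828 in wild-type colon. Apc tumours ranged from 3928 through a median of 7800 to 12067, and Apc/Tgif tumours from 7179 through 8462 to 16304. All tumours lay above all wild-type libraries. The log2 fold changes were 1.91 (SE 0.256, limma adjusted p = 5.52e-06) and 2.34 (adjusted p = 3.52e-07). Between the genotypes the difference was 0.43 (95% interval -0.06 to 0.91, adjusted p = 0.232). With the distal colon list as a covariate it was 0.58 and passed the threshold (adjusted p = 0.0117). Smoc2 overlaps 4930474M22Rik on the opposite strand, whose means of 2.55, 17.9 and 20.5 were a small fraction of those of Smoc2. Smoc1, the closest homologue of Smoc2, rose as well, with means of 183 ± 36.3, 1085 ± 284 and 816 ± 357 and log2 fold changes of 2.63 and 2.14 (adjusted p = 2.31e-08 and 2.09e-07).

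Olfm4 (ENSMUSG00000022026, chromosome 14, 79984081 to 80023139, plus strand) was listed at 0 in 4 of 5 wild-type libraries and at 1.14 in the other. It ranged from 5.20 through a median of 10.6 to 33.1 in Apc tumours and from 0.94 through 3.20 to 53.7 in Apc/Tgif tumours. It passed the filter on low values with exactly the 5 libraries required, all of them tumours, so its direction against wild-type colon was fixed by the filter and is given with no test. The groups did not overlap for Apc tumours, and for Apc/Tgif tumours the lowest value lay below the highest wild-type one. On the log2(normalized count + 1) scale the estimates against wild-type colon were 3.45 and 2.43. No fold is given against libraries at 0. With a pseudocount of 8 the value for Apc/Tgif tumours was 0.86. Between the genotypes the difference was -1.02 (95% interval -2.22 to 0.18, adjusted p = 0.254). Without Apc/Tgif tumour 2, the tumour with 53.7 and few proliferation transcripts, the difference was -1.55. The other 4 libraries at 10 or more were all Apc tumours, so that direction came with the filter and is given with no test.

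The BMP co-receptor Rgmb was 1.91-fold lower in Apc tumours and 2.05-fold lower in Apc/Tgif tumours than in wild-type colon. Rgmb (ENSMUSG00000048027, chromosome 17, 15803188 to 15831039, minus strand) stood at 2021, 1918, 1719, 2005 and 2009 in wild-type colon, the tightest group of any of the 10 genes, with a coefficient of variation of 6.57%. It ranged from 796 through a median of 923 to 1542 in Apc tumours and from 659 through 926 to 1275 in Apc/Tgif tumours. All tumours lay below all wild-type libraries. The log2 fold changes were -0.93 (SE 0.185, limma adjusted p = 0.000374) and -1.04 (adjusted p = 0.000112), and between the genotypes -0.10 (95% interval -0.45 to 0.25, adjusted p = 0.737). Neo1, a receptor for the repulsive guidance molecules, was lower too, at means of 5693, 3416 and 2504, with log2 fold changes of -0.73 and -1.197 (adjusted p = 0.000776 and 3.05e-06).

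Among 20 BMP ligands, receptors and targets, 8 were higher and 2 lower than in wild-type colon in tumours of each genotype, and between the genotypes 4 were higher and 4 lower in Apc/Tgif tumours. Over all genes these shares were 23.9% and 25.2% for Apc tumours, 24.8% and 25.5% for Apc/Tgif tumours and 7.88% and 8.76% between the genotypes. The lower ones against wild-type colon were Neo1 and Bmp2 in both. Bmp7, a ligand, had means of 324, 2020 and 1181, and Bmp2 of 3465, 1803 and 1061. Bmp2 was lower in Apc/Tgif than in Apc tumours by -0.76 (limma adjusted p = 0.00874), Bmp7 by -0.74 (adjusted p = 0.0147) and Bmp4 by -0.53 (adjusted p = 0.0163). Id2, a target of BMP signalling, was higher by 0.95 (adjusted p = 0.00337), with means of 1016, 1992 and 3731.

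The reserve-cell genes did not move together. Hopx rose, and rose further in Apc/Tgif tumours, Bmi1 rose in tumours of both genotypes, and Lrig1 was lower in Apc tumours and not called against wild-type colon in Apc/Tgif tumours. Hopx (ENSMUSG00000059325, chromosome 5, 77086988 to 77115121, minus strand), a small homeodomain protein without DNA binding of its own, stood at 1335, 1416, 1233, 1710 and 1447 in wild-type colon. It ranged from 2293 through a median of 2853 to 3612 in Apc tumours and from 4818 through 5759 to 6780 in Apc/Tgif tumours. No 2 of the 3 groups overlapped. The log2 fold changes against wild-type colon were 1.06 (SE 0.129, limma adjusted p = 1.78e-06) and 2.01 (adjusted p = 3.58e-10). Between the genotypes the difference was 0.95 (SE 0.116, adjusted p = 2.82e-05), or 1.93-fold, and it lay between 0.88 and 1.00 in the 19 fits without 1 library. The antisense gene Hopxos lies within Hopx and is not analysed here.

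Lrig1 (ENSMUSG00000030029, chromosome 6, 94604529 to 94700158, minus strand), a membrane protein that restrains receptors of the ErbB family, stood at 6225, 5091, 5734, 5099 and 5453 in wild-type colon. It ranged from 2204 through a median of 3383 to 4818 in Apc tumours and from 4129 through 4574 to 8876 in Apc/Tgif tumours. Every Apc tumour lay below every wild-type library, while Apc/Tgif tumours overlapped both other groups. Lrig1 was lower in Apc tumours by -0.76 (SE 0.198, limma adjusted p = 0.0037), and -0.44 relative to the pan-epithelial list, where it was not called. In Apc/Tgif tumours the difference from wild-type colon was -0.09 (95% interval -0.51 to 0.32, adjusted p = 0.722), and it was 0.40 relative to the pan-epithelial list and 0.06 with equal library totals, neither called. Lrig1 was higher in Apc/Tgif than in Apc tumours by 0.67 (SE 0.179, adjusted p = 0.0148), or 1.59-fold. Within females it was 0.68 and within males 0.66, not called with fewer tumours (adjusted p = 0.0756 and 0.0823).

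Of the 4 ErbB receptor genes, 3 were tested. Egfr had means of 1505, 2261 and 1633 and was higher in Apc tumours by 0.57 (limma adjusted p = 0.0151). Erbb2 was lower there by -0.48 (adjusted p = 0.024), with means of 5682, 4260 and 5144, and Erbb3 was at -0.47 (adjusted p = 0.123). None was called in Apc/Tgif tumours against wild-type colon or against Apc tumours. Erbb4 was not tested, with means of 1.05, 13.0 and 1.17.

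Bmi1 (ENSMUSG00000026739, chromosome 2, 18677018 to 18686629, plus strand), a subunit of the Polycomb repressive complex PRC1, stood at 1227, 1035, 1227, 862 and 1021 in wild-type colon. It ranged from 1398 through a median of 2131 to 2785 in Apc tumours and from 1796 through 2305 to 2689 in Apc/Tgif tumours. All tumours lay above all wild-type libraries. The log2 fold changes were 0.95 (SE 0.157, limma adjusted p = 5.56e-05) and 1.07 (adjusted p = 1.22e-05), or 1.93 and 2.10-fold, and 0.12 between the genotypes (95% interval -0.18 to 0.41, adjusted p = 0.639). Commd3 ends 787 bases before Bmi1 on the same strand, and the ratio of Bmi1 to Commd3 stayed between 0.775 and 1.26 over the 19 libraries. Among 12 further PRC1 genes, 6 were higher and 0 lower than in wild-type colon in tumours of each genotype. Between the genotypes 2 were higher and 1 lower. Over all genes, 23.9% were higher and 25.2% lower in Apc tumours, and 24.8% and 25.5% in Apc/Tgif tumours. Between the genotypes these shares were 7.88% and 8.76%, so 1 of 12 lower was near the background. The chromobox gene Cbx2 had means of 262, 783 and 690 and a log2 fold change of 1.59 in Apc tumours (adjusted p = 1.56e-07). Between the genotypes Phc1 was lower by -0.34 (adjusted p = 0.0246), Cbx7 higher by 0.97 (adjusted p = 0.0367) and Phc3 higher by 0.51 (adjusted p = 0.0496).

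A list of 25 further crypt-base genes was set beside the 10. In Apc tumours, 20 of the 25 were higher and 3 lower than in wild-type colon, against 23.9% and 25.2% of all genes, with a median log2 fold change of 1.64, against -0.01. In Apc/Tgif tumours 20 were higher and 2 lower, against 24.8% and 25.5%, with a median of 1.82, against 0.00. Mex3a, an RNA-binding protein of crypt-base cells, had means of 179 ± 29.9, 2891 ± 588 and 2617 ± 741 and log2 fold changes of 3.99 and 3.82 (limma adjusted p = 1.51e-11 and 1.93e-11). Axin2, a Wnt feedback inhibitor, had means of 1406, 10108 and 15377, and Phlda1 of 1272, 8632 and 6939. The lower genes in Apc tumours were Esrrg, Aqp4 and Myb, and in Apc/Tgif tumours Esrrg and Aqp4. The water channel gene Aqp4 had means of 18608, 4919 and 3135.

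Between the tumour genotypes, 7 of the 25 were higher in Apc/Tgif tumours and 1 was lower, against 7.88% and 8.76% of all genes. Ephb2, a receptor tyrosine kinase that positions cells along the crypt, had means of 4683 ± 603 and 7299 ± 523 in Apc and Apc/Tgif tumours, a log2 fold change of 0.65 (limma adjusted p = 0.000129). Slc12a2, an ion cotransporter, was higher by 0.84 (adjusted p = 0.00122) and the cell cycle kinase gene Cdk6 by 0.68 (adjusted p = 0.0023). The lower gene was Igfbp4, a secreted binding protein of insulin-like growth factors, at means of 18977 and 9059 and a log2 fold change of -1.11 (adjusted p = 0.00263).

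**Figure D3:**
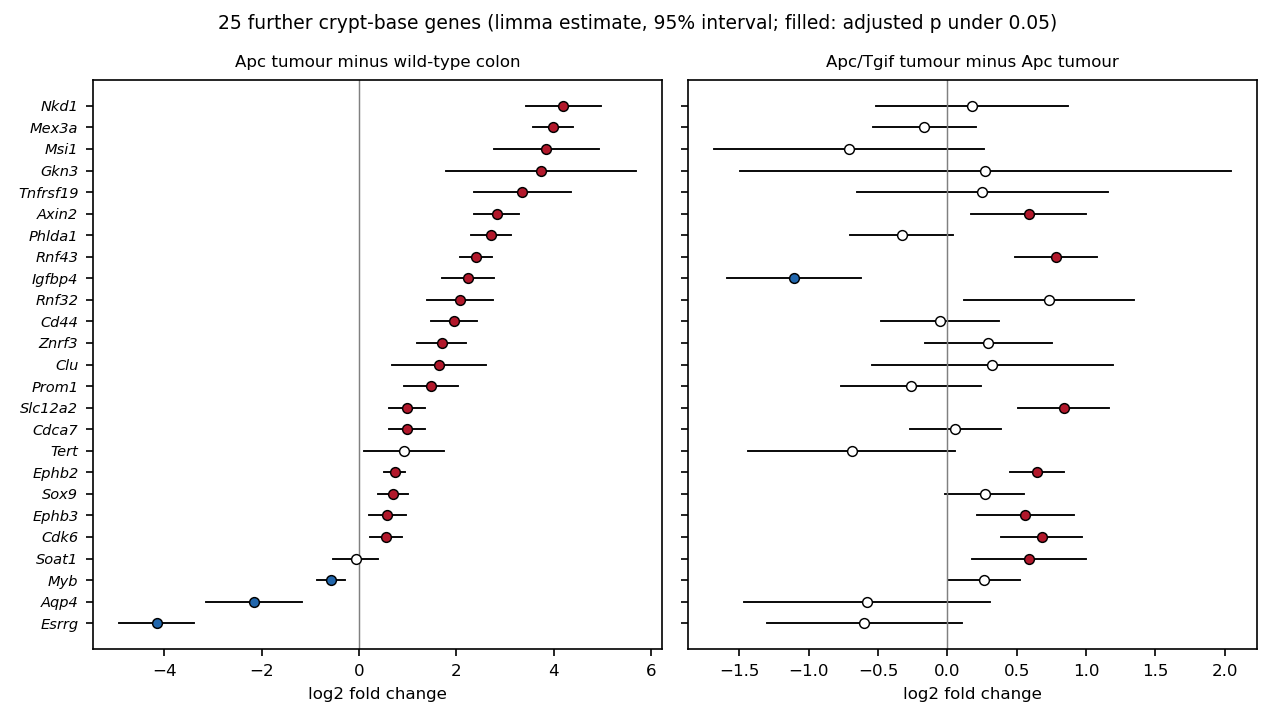
Log2 fold change of 25 further crypt-base genes in Apc tumours against wild-type colon and in Apc/Tgif against Apc tumours. Lines are the 95% interval of the limma estimate, and filled points have an adjusted p under 0.05. In Apc tumours against wild-type colon most points lie to the right of 0. Between the tumour genotypes 7 filled points lie to the right and 1, Igfbp4, to the left.

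Homologues of the 10 genes were counted. Of 18, 15 were tested. In Apc tumours 6 were higher and 5 lower than in wild-type colon, and in Apc/Tgif tumours 4 were higher and 6 lower. The shares over all genes were 23.9% and 25.2%, and 24.8% and 25.5%, so 4 of 15 higher was near the background. Lrig3, a homologue of Lrig1, fell in both, with log2 fold changes of -1.91 and -2.37 (limma adjusted p = 3.42e-05 and 2.18e-06), with means of 2458, 701 and 510. Pcgf6, a homologue of Bmi1, had means of 529, 895 and 824 and rose by 0.79 and 0.69 (adjusted p = 1.24e-05 and 4.75e-05). Between the genotypes 0 of the 15 were higher and 1 lower, against 7.88% and 8.76% of all genes, so 1 lower was near the background. That homologue was Sox12, which is in the same family as Sox4. Its means were 190.5, 328 and 93.3, and it was lower in Apc/Tgif than in Apc tumours by -1.74 (adjusted p = 2.82e-05), while Sox4 was higher by 0.29.

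The order of the 10 genes was read per kilobase of the longest annotated transcript, since levels of different genes compare only per length. In wild-type colon Lgr4 was highest at 2243 ± 439 normalized counts per kilobase, followed by Hopx at 1133 ± 141 and Lrig1 at 1115 ± 96.3, which overlapped each other. Smoc2 at 469 lay apart from its neighbours, while the ranges of Rgmb at 339, Bmi1 at 299, Ascl2 at 235 and Sox4 at 201 overlapped from each to the next. Lgr5 stood at 91.4 and Olfm4 at 0.0814, each apart from the gene above.

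In Apc tumours the order became Hopx at 2368, Sox4 at 1915, Smoc2 at 1891, Lgr4 at 1513, Lgr5 at 880, Lrig1 at 686, Ascl2 at 602, Bmi1 at 576, Rgmb at 179 and Olfm4 at 4.63 per kilobase. From Hopx to Bmi1 each gene overlapped the next, though Hopx was above Sox4 in 7 of 7 libraries. In Apc/Tgif tumours Hopx led at 4550 ± 569, above Smoc2 at 2452 in 7 of 7 libraries. Sox4 followed at 2342, Lgr4 at 1745, Ascl2 at 1143, Lrig1 at 1090, Lgr5 at 882, Bmi1 at 615, Rgmb at 168 and Olfm4 at 3.84. The longest transcript of Smoc2 has 3972 bases and its longest coding transcript 2832. With coding transcripts Smoc2 stood at 2652 per kilobase in Apc tumours and moved above Hopx there, and no order changed in the other groups.

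**Figure D4:**
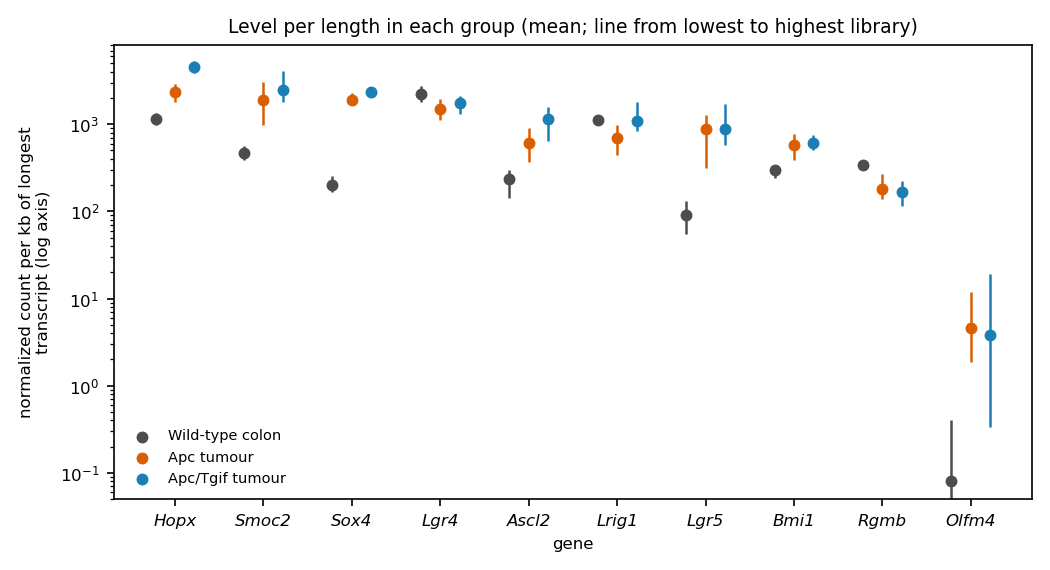
Mean normalized count per kilobase of longest transcript for each of the 10 genes and groups, on a log axis that starts at 0.05, with lines from the lowest to the highest library. The line of Olfm4 in wild-type colon goes down to 0 and is clipped. Lgr4 leads in wild-type colon at 2243 and Hopx leads in Apc and Apc/Tgif tumours at 2368 and 4550.

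Tumours of 1 genotype differed among themselves most for Olfm4 and Lgr5 and least for Sox4. The coefficient of variation was 73.3% and 177% for Olfm4 in Apc and Apc/Tgif tumours, 40.3% and 44.6% for Lgr5, and 39.6% and 31.7% for Smoc2. Lgr5 and Smoc2 were lowest in the same Apc tumours, 5 and 6, and highest in the same Apc/Tgif tumour, 5. Pearson's r of Lgr5 with Smoc2 on the log2 scale was 0.86 over 7 Apc tumours (exact permutation p = 0.0121, adjusted over 45 pairs 0.471), and Spearman's rho was 0.82 (exact permutation p = 0.0341, adjusted 0.481). Without the 2 tumours farthest from the median of Lgr5, r was 0.52. Over 7 Apc/Tgif tumours r was 0.78 (exact permutation p = 0.0627, adjusted 0.282) and rho 0.43 (exact permutation p = 0.354, adjusted 0.829), and r was -0.10 without the 2 farthest, so the relation rested on those tumours.

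Lgr5 and Lrig1 had an r of 0.92 in Apc/Tgif tumours (exact permutation p = 0.0119, adjusted 0.282), a rho of 0.71 (exact permutation p = 0.0881, adjusted 0.44) and an r of 0.73 without the 2 farthest. In Apc tumours r was 0.36 (exact permutation p = 0.434, adjusted 0.753) and rho 0.32 (exact permutation p = 0.498, adjusted 0.851). Of the 45 pairs, 0 passed adjustment in either genotype, by either coefficient, in two-sided tests. At an unadjusted p under 0.05 there were 3 pairs in Apc and 5 in Apc/Tgif tumours by Pearson's r.

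**Figure D5:**
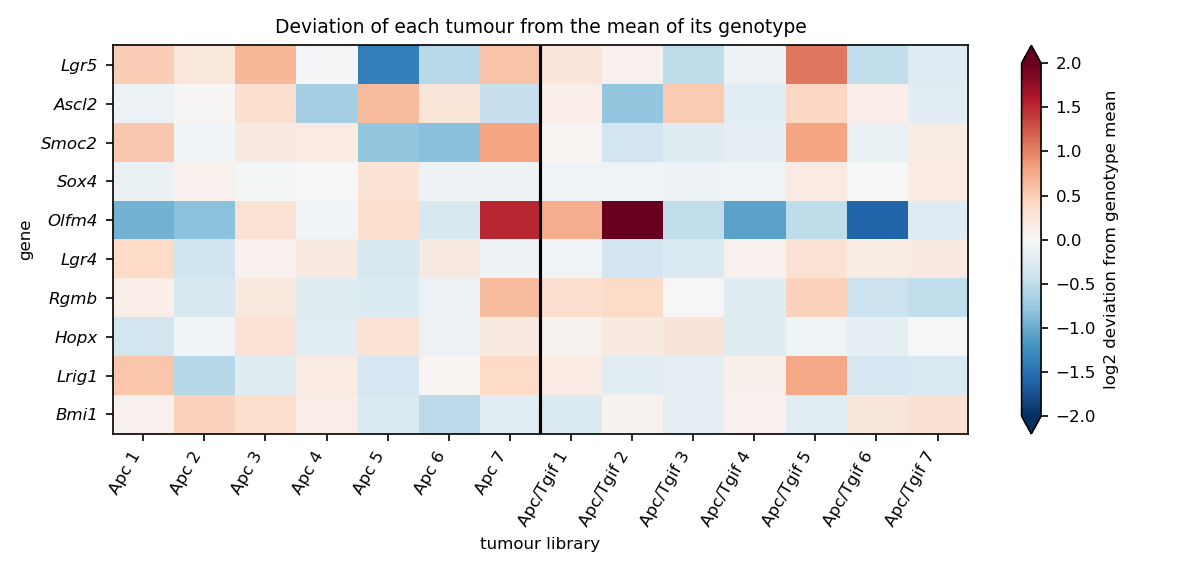
Deviation of log2(normalized count + 1) from the mean of its genotype for the 10 genes (rows) in the 7 Apc and 7 Apc/Tgif tumours (columns); red is above and blue below the mean. Lgr5 is deepest blue in Apc tumour 5, at 1489 normalized counts, and Olfm4 is deepest red in Apc/Tgif tumour 2, at 53.7.

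The genes most like Lgr5 and Olfm4 in this variation were sought among 12047 genes with a mean of at least 100 over 14 tumours, each centred on its genotype. Among the highest r with Lgr5 were 0.95 for Angpt4, an angiopoietin, and 0.91 for Capn6, a calpain family member. The r of Lgr5 with Smoc2 on this measure was 0.84. Angpt4 had means of 11.9, 201 and 185 normalized counts in wild-type colon, Apc and Apc/Tgif tumours, and Capn6 of 43.2, 569 and 61.3. The genes most like Olfm4 were Snhg20 at 0.95, Klhdc8b at 0.92 and Pabpn1 at 0.92. Within genotypes the r of Snhg20 was 0.78 in Apc and 0.99 in Apc/Tgif tumours, where tumour 2 stood apart for Olfm4 at 53.7. Without that tumour the r over 13 tumours was 0.86 for Snhg20, 0.88 for Klhdc8b and 0.84 for Pabpn1. Without Apc/Tgif tumour 5, highest for Lgr5, it was 0.93 for Angpt4 and 0.88 for Capn6. These genes were picked as the highest of 12047 over all 14 tumours, so their r is high by selection. They were not ranked again without a tumour, and the values are a description.

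Whether the difference between tumour genotypes was the same in females and males was tested for all genes, and 23.6% of genes were called. Among the 10, Bmi1 and Olfm4 were called, a share near the background. The Bmi1 difference was -0.32 in females and 0.45 in males, and males minus females it was 0.77 (SE 0.228, limma adjusted p = 0.0233). Bmi1 in Apc tumours was 2131 to 2785 in 3 females and 1398 to 2203 in 4 males, and in Apc/Tgif tumours 1796 to 2305 and 1898 to 2689. The Olfm4 difference was 0.62 in females and -2.25 in males, a difference of -2.87 (SE 1.00, limma adjusted p = 0.0462). Olfm4 in Apc tumours was 5.20 to 13.7 in females and 8.52 to 33.1 in males, and in Apc/Tgif tumours 3.20 to 53.7 and 0.94 to 3.90. Tumour 2, at 53.7, stood apart from the other Apc/Tgif females, at 8.70 and 3.20. The Olfm4 values thus lie near the floor, and the female one leans on 1 tumour. Against wild-type colon, 0 of the 10 were called for sex in either kind of tumour, where 0.0108% and 3.40% of all genes were. At an unadjusted limma p under 0.05, Sox4 passed in Apc tumours and Lgr4, Hopx, Sox4 and Bmi1 in Apc/Tgif tumours. The share of all genes at that unadjusted threshold is not given, so these genes are not read as a result.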

How the data were processed

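RNA from 19 mice was measured as poly-A selected libraries read as single ends of 75 bases, per the labels' protocols. The deposited values are a signal, normalized counts per gene, that the authors made from counts divided by a factor per library. Salmon, DESeq2 and the build names GRCm38 and mm10 are listed in the submitters' processing notes; their versions, the annotation and any use of strand were not stated, and reads of a gene and of its antisense partner cannot be told apart. Between 82.47% and 85.47% of low values (under 20) were whole multiples of the worth of 1 count within 0.1, so whole reads were not recovered, and the test planned for normalized values replaced the count test.

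Genes with a value of at least 10 in at least 5 libraries (18445) were fitted in R 4.3.3 by limma 3.58.1, which took the log2 of each normalized count plus 1, used trend and robust moderation, and held terms for group and sex over all 19 libraries. Tests were two-sided, with Benjamini-Hochberg adjustment over all genes tested and a threshold of 0.05. Every adjusted p of a gene comes from limma. Fold changes are on this log scale and understate low genes. Correlations within a genotype used exact permutation. The steps were tested on simulated data.

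The 10 genes and all lists were chosen with earlier results of these data known. Named genes were the 10, Tgif1 and Tgif2, up to 4 genes with the smallest p per list and contrast (all of a list of 7 or fewer), and the 3 genes most like each of Lgr5 and Olfm4. A gene that this rule selects is not reported here. Igfbp4, Aqp4, Esrrg, Myb, Neo1, Mki67 and Epcam fall outside that rule and were named after their values were seen. The CTGTCA motif, coding transcript lengths, 1 further scaling, the counts without Olfm4, the likeness without 1 tumour and the removal of Apc/Tgif tumours 2 and 5 together were also chosen after seeing the data. Positions are from GENCODE vM21 (GRCm38) and promoters from RefSeq (GRCm38.p6), matched by symbol. Alternatives covered pseudocount, filter, scaling, covariates, sex, weights and single libraries.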

Additional observations from a re-analysis of the deposited data

Results flagged for a closer look

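Within each group, the highest or lowest library of each of the 10 genes was compared with its nearest neighbour by Dixon's ratio. Of 30 sets, 6 had a library standing far from the others, where the nominal rate of the ratio is about 1 in 20 for normally distributed values. The ratio was taken on untransformed values, and several of the 6 came from the same tumour. The wild-type set of Olfm4, with 4 libraries at 0, is flagged by any other value. The count of 6 is therefore not read against that rate. Apc/Tgif tumour 5 stood above the 6 others for Lgr5 at 8209 normalized counts, for Smoc2 at 16304 and for Lrig1 at 8876. Olfm4 had a far library in each group, at 1.14 in wild-type library 2, 33.1 in Apc tumour 7 and 53.7 in Apc/Tgif tumour 2. Without Apc/Tgif tumour 5 the Lgr5 difference between the tumour genotypes was -0.17 in place of 0.04, and neither was called by limma.

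The difference between Apc/Tgif and Apc tumours differed between males and females for 2 genes by a test of the interaction. It did so by -2.87 for Olfm4 and 0.77 for Bmi1 on the log2 scale, and 23.6% of all genes were called in that test. Olfm4 was at 3.90 or less in male Apc/Tgif tumours, and its 53.7 came from 1 female.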

How the results depend on the processing

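Each value was recomputed under 17 other settings and 19 fits that left out 1 library. Of 169 values per comparison from the 17 settings, 164, 159 and 141 kept their direction and side of the threshold in Apc tumours and in Apc/Tgif tumours, each against wild-type colon, and in Apc/Tgif against Apc tumours. The cause of the changes below was not tested. Equal library totals moved the median of all genes by 0.20, 0.15 and -0.05, and turned 4415 higher and 4639 lower, 4576 and 4708, and 1453 and 1615 into 6160 and 3417, 5810 and 3843, and 1080 and 1849. Scaling to the pan-epithelial list moved it by 0.32, 0.49 and 0.17.

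For Apc tumours against wild-type colon, Lgr4 was -0.37 with equal totals, -0.25 relative to the pan-epithelial list and -0.31 in males, and Lrig1 -0.44 and -0.62 under the last pair, none called. Of the 10, 1 was lower under each of these, and over all genes 2572 and 3039. With wild-type colon as reference for Apc/Tgif tumours, Lgr4 was called at -0.45 with the distal colon covariate, -0.34 with means per group and sex and -0.79 in females, which made 2 of the 10 lower, and turned to 0.13 relative to the pan-epithelial list and 0.11 in males. Lrig1 turned to 0.060 with equal totals, 0.015 with equal totals without the 10 highest genes, 0.40 relative to the pan-epithelial list and 0.041 in males. Olfm4 was 0.86 with a pseudocount of 8, not called. Relative to the pan-epithelial list 7829 genes were higher and 2474 lower.

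For Apc/Tgif against Apc tumours, in females Lgr4 turned to -0.056, Lgr5 to -0.48, Olfm4 to 0.62, Rgmb to 0.13 and Bmi1 to -0.32, Ascl2 (0.81), Lrig1 (0.68) and Sox4 (0.24) were not called, 1 of the 10 was higher, and 2230 genes were higher. In males Lgr4 (0.41) and Olfm4 (-2.25) were called, with 1 of the 10 lower, and Lrig1 (0.66) and Sox4 (0.34) were not. Olfm4 was at 3.90 or less in male Apc/Tgif tumours, below the filter value of 10, so its call there is a description. Lgr5 also turned to -0.0065 with equal totals, -0.0084 with quantile normalization, -0.023 with means per group and sex and -0.17 without Apc/Tgif tumours 2 and 5. Olfm4 was at -1.73 with quality weights, past the threshold, with 1 of the 10 lower. It reached the filter value of 10 in 4 Apc tumours and 1 Apc/Tgif tumour, so this call too is a description. Olfm4 was -1.56 without Apc/Tgif tumours 2 and 5, where only Apc tumours reached the filter value of 10, so no call is given. Smoc2 was called at 0.58 with the distal colon covariate, and Rgmb turned to 0.069 relative to the pan-epithelial list, where 674 genes were lower. Sox4 was not called at 0.29 without a filter or without trend, 0.24 with equal totals, 0.25 without the 10 highest genes, 0.27 with quantiles, 0.47 relative to the pan-epithelial list, 0.28 with the distal covariate and 0.28 without tumours 2 and 5.

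Leaving out 1 library gave -0.45 to -0.28 for Lgr4 in Apc/Tgif tumours against wild-type colon, with 1 to 2 of the 10 lower. Between the genotypes it gave -0.17 to 0.18 for Lgr5, -1.55 to -0.72 for Olfm4, -0.19 to 0.016 for Rgmb and 0.26 to 0.34 for Sox4, with 0 to 1 of the 10 lower. The 1 was Olfm4 without Apc/Tgif tumour 2, where only Apc tumours reached the filter value of 10. Depth limits Olfm4, at 0 to 1.14 normalized counts in wild-type colon. No paired analysis was possible because the labels give no replicate numbers shared between groups.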

Other observations

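Of 8 Notch pathway and fate genes, 3 were higher and 2 lower in Apc tumours than in wild-type colon (23.9% and 25.2% of all genes), 4 and 2 in Apc/Tgif tumours (24.8% and 25.5%), and 3 and 2 between the genotypes (7.88% and 8.76%). Dll4, a Notch ligand, had means of 513, 1065 and 1615 normalized counts and was higher in Apc/Tgif than in Apc tumours by 0.60 (limma adjusted p = 0.00284). Hes1, a Notch target, was higher by 0.51 (adjusted p = 0.00372), with means of 3020, 2756 and 3967. Atoh1, the factor that directs secretory fate, fell by 1.34 between the genotypes (adjusted p = 0.00418), with means of 2024, 706 and 300.

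Against the same shares, of 15 proliferation genes 8 were higher and 0 lower in Apc tumours, 5 and 0 in Apc/Tgif tumours, and 0 were called between the genotypes. The replication licensing gene Mcm7 had means of 1807, 4220 and 3780 and rose by 1.21 and 1.01 on the log2 scale (limma adjusted p = 6.30e-05 and 0.000338). Mki67 was at -0.00 in Apc tumours (adjusted p = 0.994) and 0.09 in Apc/Tgif tumours (adjusted p = 0.867).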
